A study of Rattus norvegicus with 9 samples.

Results

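Exosomal small RNA was compared between rat peritoneal macrophages given astragaloside IV before lipopolysaccharide (LPS+AS-IV) and macrophages given lipopolysaccharide alone (LPS). The libraries were chosen by their titles, 3 of LPS+AS-IV against 3 of LPS, and were 6 of the 9 libraries of the series. They held reads for 186 of the 201 miRNAs in the deposited miRNA table, and 344554 of the 485728 distinct tag sequences (the short sequenced fragments) of the series. LPS cultures received LPS at 100 ng/ml for 6 h. LPS+AS-IV cultures received astragaloside IV at 150 µM for 24 h and then LPS. Both compounds were dissolved in DMSO, and the labels give a DMSO concentration for the control cultures of the series alone, so the vehicle of the astragaloside IV step cannot be told apart from the compound. The cells came from an untreated rat by lavage without a stated sort and were kept in medium with 10% serum. Whether replicates were separate animals or cultures is not in the labels. The p-values therefore reflect only how far these samples lie apart, and that spread may be technical.

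Exosomes are small vesicles that cells release and that carry RNA to other cells. A miRNA in them represses messenger RNAs that pair with its seed, bases 2 to 8 from the 5′ end, so miRNAs with the same seed share many targets. LPS acts on macrophages through TLR4 and NF-κB, which induce miR-155 and miR-146a, and astragaloside IV is a saponin of Astragalus root studied as an anti-inflammatory compound. Vesicle RNA also holds fragments of tRNA and rRNA, which are often more plentiful than miRNAs. In bulk vesicle RNA, fewer vesicles of 1 source and less RNA per vesicle cannot be told apart.

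The miRNAs on which the comparison turns are printed first, as RefSeq gives them for the rat build GRCr8, 5′ to 3′ with the seed in capitals. Of the 58 miRNAs that the naming rule took, 49 matched a RefSeq entry. The first set had a level in each LPS+AS-IV library above that in each LPS library, or stood among the smallest unadjusted p in that direction.
let-7d-5p: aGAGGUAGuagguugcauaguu
miR-204-5p: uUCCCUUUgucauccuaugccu
miR-126a-3p: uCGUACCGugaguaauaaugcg
miR-181b-5p: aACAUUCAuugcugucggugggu
miR-128-3p: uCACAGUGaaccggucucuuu
The second set pointed the other way by the same measures, and miR-92a-3p is added because it has the seed of miR-25-3p, and miR-181a-5p because it has the seed of miR-181b-5p.
miR-222-3p: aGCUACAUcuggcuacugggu
miR-25-3p: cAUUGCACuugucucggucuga
miR-92a-3p: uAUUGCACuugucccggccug
miR-181a-5p: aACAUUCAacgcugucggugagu
miR-532-3p: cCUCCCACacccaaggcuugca
The third set shows a name that the results touch. The reference of miR-3596a is the exact reverse complement of let-7a-5p over 22 bases, and the tag below it, read in these libraries and given in DNA letters as deposited, is let-7a-5p with 1 base more at its 3′ end.
let-7a-5p: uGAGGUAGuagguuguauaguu
miR-3596a: aACUAUACaaccuacuaccuca
tag named miR-3596a or let-7a-5p: tgaggtagtaggttgtatagttg

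Assigned reads per library were 9305041, 3484099 and 8936275 with LPS alone and 9527483, 9098417 and 6699947 in LPS+AS-IV. The miRNA table counted 25483, 65715 and 61579 reads with LPS alone and 15426, 68845 and 546599 in LPS+AS-IV, so LPS+AS-IV 3 had more miRNA reads than the other 5 libraries together. Reads of its tags were also higher. Among mature miRNA tags with at least 10 reads the median count was 1100.5 in LPS+AS-IV 3 and between 44 and 154 in the other 5 libraries. Tags found in 1 library alone held 33.9% of the reads of LPS+AS-IV 3 and between 8.35% and 13.9% in the others. Where a miRNA had no read, up to 3 reads were still possible, or 5.99 CPM in the deep LPS+AS-IV 3 but 216 CPM in LPS+AS-IV 1 (CPM are counts of the miRNA table scaled to the TMM-adjusted library size).

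A second split crossed the treatment. Across 8977 tags, log levels of LPS 3 and LPS+AS-IV 3 correlated at r = 0.42 with each other and at r = 0.02 to 0.23 with the other 4 libraries, which correlated among themselves at r = 0.34 to 0.58. Tags are not independent replicates, and r is given as a description. The 25 tags with the highest share showed the same split. Both libraries numbered 3 lay below the other 4 in 14 of them, above in 6 and neither in 5, and the LPS and LPS+AS-IV groups overlapped in 25 of 25. The leading tag, a 35-nt tag of the Rfam tRNA family, held 15.2%, 8.40% and 0.0157% of assigned reads with LPS alone and 11.8%, 9.77% and 0.00816% in LPS+AS-IV. A 33-nt tag of the same family held 0.182%, 0.106% and 5.70% with LPS alone and 0.283%, 0.209% and 1.17% in LPS+AS-IV, with the libraries numbered 3 now the high ones. The Rfam tRNA family takes in tRNAs of all organisms, so the name does not give the species. Values without LPS+AS-IV 3, or without both libraries numbered 3, stand beside many of the results below.

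tRNA and rRNA gave most assigned reads in each library except LPS 3, where tags named piRNA were the largest class, and no RNA class separated astragaloside IV from LPS. tRNA fragments held 60.5%, 29.7% and 12.9% of assigned reads with LPS alone and 51.5%, 42.9% and 10.2% in LPS+AS-IV, which is 34.4% ± 24.1 and 34.9% ± 21.8 (SD, 3 libraries each, n = 3). In both groups the third library was the low one. Eukaryotic rRNA held 14.01%, 22.1% and 31.6% with LPS alone and 15.4%, 33.3% and 35.8% in LPS+AS-IV. Bacterial and archaeal rRNA held 18.1%, 32.3% and 5.16% with LPS alone and 21.8%, 13.7% and 14.3% in LPS+AS-IV. By two-sided exact permutation tests over 11 classes, each adjusted p was 1, and the groups overlapped in every class. With 3 libraries against 3 the smallest p that the exact test can give is 0.1.

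**Figure D1:**
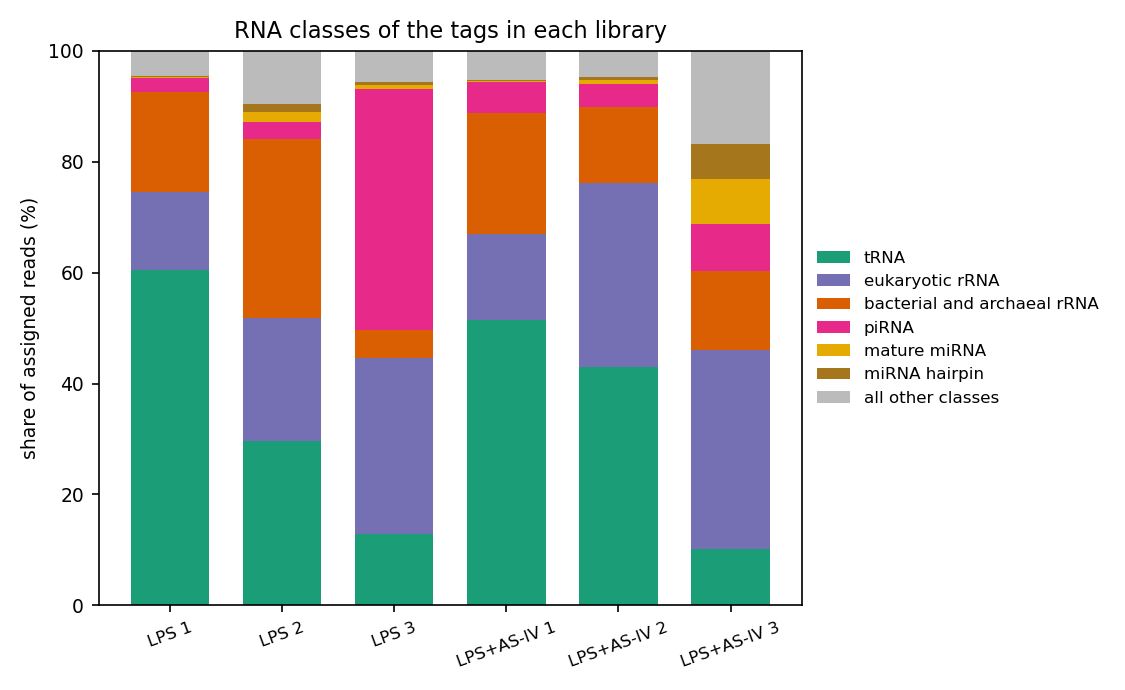
Shares of assigned reads (%, vertical axis) by RNA class, stacked, in each of the 6 libraries. tRNA is at 10.2% to 12.9% in the 2 libraries numbered 3 and at 29.7% to 60.5% in the other 4, while piRNA fills 43.5% of LPS 3 and mature miRNA 8.16% of LPS+AS-IV 3.

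Mature miRNA held 0.276%, 1.88% and 0.691% of assigned reads with LPS alone and 0.162%, 0.757% and 8.16% in LPS+AS-IV. The high mean of LPS+AS-IV, 3.03% ± 4.45 (SD, n = 3), beside 0.948% ± 0.831 in LPS (SD, n = 3), came from LPS+AS-IV 3. Without that library the LPS+AS-IV mean was 0.459% ± 0.421 (SD of 2 libraries), below that of LPS. Tags named for a miRNA hairpin followed the same course, with 6.24% in LPS+AS-IV 3 and 0.117% to 1.43% in the others. They were mostly of miRNA length. In LPS+AS-IV 3, such tags of 20 to 24 nt held 6.17% of assigned reads. The sums with 0 or 1 mismatch used below add them to the mature tags, so they are not an independent class of precursors. The 95% Wilson interval of the mature miRNA share was 8.14% to 8.18% in LPS+AS-IV 3, and like all intervals here it covers counting error only, since PCR copies are not independent molecules.

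Tags named piRNA held 2.43%, 3.12% and 43.5% with LPS alone and 5.65%, 4.09% and 8.50% in LPS+AS-IV. The name rno_piR_001199 gave 1.68%, 1.62% and 34.7% of assigned reads with LPS alone and 4.70%, 2.65% and 5.87% in LPS+AS-IV. The family's log2 fold change in LPS+AS-IV against LPS was -2.05 (SE 1.41, edgeR adjusted p = 1.00), and it was 1.26 with both libraries numbered 3 left out. Without rno_piR_001199 the piRNA share was 0.761%, 1.52% and 13.4% with LPS alone and 0.994%, 1.48% and 2.80% in LPS+AS-IV. The next name, rno_piR_005901, held 0.363%, 0.223% and 5.75% with LPS alone and 0.430%, 0.733% and 1.64% in LPS+AS-IV. In the 4 libraries left when both numbered 3 are set aside, the piRNA share was 2.43% and 3.12% with LPS alone and 5.65% and 4.09% in LPS+AS-IV, a difference of 2.10 percentage points in the opposite direction to that of the 6 libraries (exact permutation p = 0.333, the smallest that 2 against 2 can give).

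The rRNA classes depended on how 1 family was read. Tags named for 5.8S rRNA, a short RNA of the eukaryotic large ribosomal subunit, held 6.74%, 10.4% and 18.2% of assigned reads with LPS alone and 5.69%, 25.5% and 8.88% in LPS+AS-IV. Of these reads, 62.2%, 71.3% and 0.914% with LPS alone and 48.9%, 78.1% and 8.39% in LPS+AS-IV were on tags whose whole sequence also lies inside a longer tag named for bacterial large subunit rRNA. A 24-nt tag of this kind held 13.8% of the reads of LPS+AS-IV 2. As named, the ratio of bacterial to eukaryotic rRNA reads was 1.29, 1.46 and 0.163 with LPS alone and 1.41, 0.412 and 0.398 in LPS+AS-IV. With those tags moved to the bacterial class, a reading chosen after the data were seen, the ratio was 2.27, 2.70 and 0.170 with LPS alone and 1.95, 2.52 and 0.428 in LPS+AS-IV. LPS+AS-IV 2 then stood beside LPS+AS-IV 1 and the first pair of LPS libraries, and the libraries numbered 3 remained low in both readings. The origin of the bacterial rRNA was not tested.

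**Figure D2:**
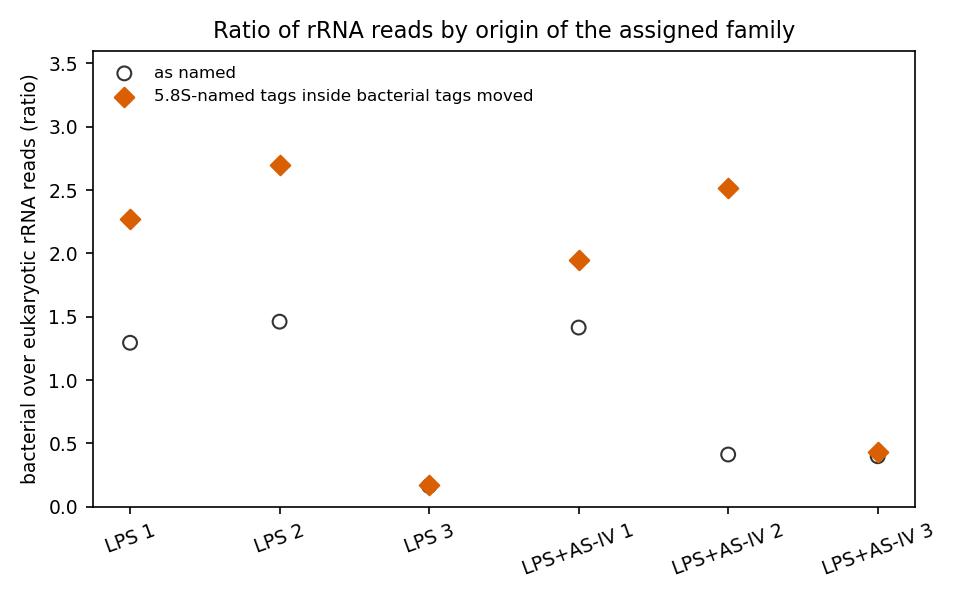
Ratio of reads named for bacterial rRNA to reads named for eukaryotic rRNA (vertical axis, linear) in each library, as named in the files (open circles) and with 5.8S-named tags that lie inside bacterial tags moved (diamonds). After the move 4 libraries lie between 1.95 and 2.70, and the 2 libraries numbered 3 at 0.170 and 0.428.

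Tag lengths did not separate the groups either. Tags of 33 to 38 nt, the length of tRNA-derived 5′ fragments, held 74.7%, 57.6% and 53.2% of assigned reads with LPS alone and 71.9%, 54.1% and 24.9% in LPS+AS-IV. Tags of 20 to 24 nt, the length of miRNAs, held 4.38%, 8.40% and 6.14% with LPS alone and 2.21%, 20.04% and 30.6% in LPS+AS-IV. The means at 20 to 24 nt were 6.31% ± 2.02 with LPS alone and 17.6% ± 14.3 with both agents (SD, 3 libraries each, n = 3, exact permutation adjusted p = 0.833). The difference, 11.3 percentage points, was 4.81 without LPS+AS-IV 3 and 1.88 with tags of 10 or more reads each counted once. Without LPS+AS-IV 1 it was 18.997 and the groups did not overlap (exact permutation p = 0.1, the smallest that 3 against 2 can give, adjusted p = 0.25). The 2 high LPS+AS-IV libraries differed in what filled this length. In LPS+AS-IV 2, 85.3% of the reads at 20 to 24 nt were named eukaryotic rRNA and 3.70% mature miRNA. In LPS+AS-IV 3 the figures were 24.8% and 25.9%. For comparison, mature miRNA made up 6.02%, 21.8% and 10.9% of the reads at this length in LPS. At 15 to 19 nt LPS+AS-IV 3 held 2.88% and the other libraries at most 0.395%. Over the 5 length ranges each adjusted p was 0.833 or 1.

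**Figure D3:**
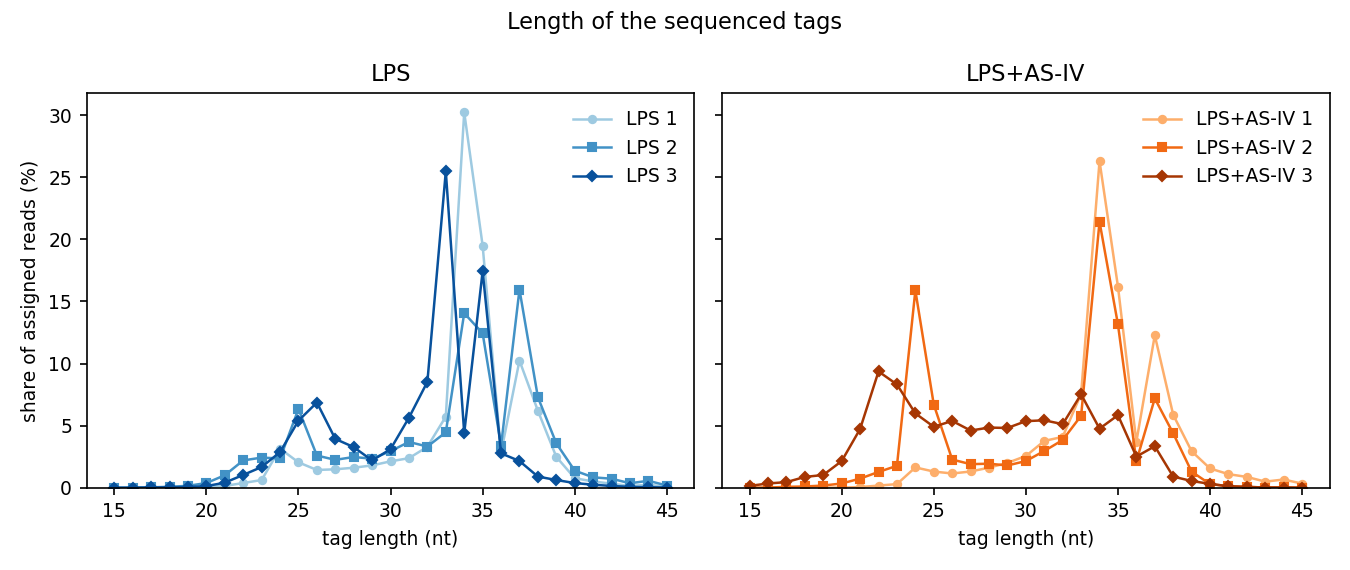
Share of assigned reads (%, vertical axis) at each tag length (nt, horizontal axis), 1 line per library, LPS on the left and LPS+AS-IV on the right. The libraries numbered 1 and 2 peak at 34 to 37 nt, LPS 3 peaks at 33 nt with 25.5%, LPS+AS-IV 3 peaks at 22 nt with 9.37%, and LPS+AS-IV 2 has a further peak at 24 nt with 15.9%.

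At the level of single tags, edgeR's quasi-likelihood test called 0 of 9072 tags (0%), with 62 higher and 80 lower in LPS+AS-IV at an unadjusted p under 0.05 (1.57% of those tested), and DESeq2 called 0. Each LPS+AS-IV library lay above each LPS library in 149 tags (1.64%) and below in 238 (2.62%). A core of 1636 tags was read in all 6 libraries and held 65.4% of reads. The 6 libraries held 344554 distinct tags. At 1 read or more, 345 of them were present in each LPS library and absent from each LPS+AS-IV library, and 218 the reverse. Counting only tags with 10 or more reads in each library of 1 group and 0 in the other, these numbers were 77 and 63 of the same 344554.

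Tags of mature miRNAs and tags named piRNA pointed in different directions, and both turned without the libraries numbered 3. Of 101 mature miRNA tags tested, 78 had a higher fitted level in LPS+AS-IV (median log2 fold change 0.84). Of 194 piRNA tags, 33 were higher (median -1.48). Over all 9072 tags, 4265 were higher (median -0.09). With both libraries numbered 3 left out, the median was -0.20 for mature miRNA tags, 0.93 for piRNA tags and 0.21 over all tags tested.

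Summed by assigned name, edgeR called 0 of 1002 RNA families (0%), with 7 higher and 8 lower at an unadjusted p under 0.05 (1.5%). DESeq2 called 6, all lower in LPS+AS-IV. The 2 with the smallest adjusted p were rno_piR_006383 and rno_piR_011958. The name rno_piR_006383 had 116, 108 and 323 reads with LPS alone and none in LPS+AS-IV (DESeq2 adjusted p = 0.000306, edgeR 0.791). The name rno_piR_011958 had 49, 190 and 149 reads with LPS alone and none in LPS+AS-IV (DESeq2 adjusted p = 0.00365, edgeR 1.00). Each is a small name next to rno_piR_001199, and the groups do not overlap in either. Such separation was found in 25 of the 1002 families with LPS+AS-IV above (2.5%) and in 49 with LPS+AS-IV below (4.89%).

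The family with the smallest unadjusted p was RF00291, which had 21, 18 and 24 reads with LPS alone and 399, 54 and 45132 in LPS+AS-IV. The log2 fold change came to 7.78 (SE 1.68, edgeR adjusted p = 0.201). In LPS+AS-IV 3, 43752 of its reads were on 1 tag of 34 nt that no other library held. Without LPS+AS-IV 3 the log2 fold change was 3.29 (edgeR adjusted p = 1.00). edgeR called the family without LPS 2 (adjusted p = 0.0313), without LPS+AS-IV 1 (2.55e-10), without LPS+AS-IV 2 (0.000764), with library totals (0.00219), with no filter on low counts (2.63e-06) and with 9 libraries in the fit (0.0159). Among names marked as miRNA hairpin, that of miR-15b-5p, a relative of miR-16 that restrains the cell cycle, had 51, 9 and 4 reads with LPS alone and 37, 342 and 2952 in LPS+AS-IV (log2 fold change 3.99, SE 1.70, edgeR adjusted p = 1.00). It was 2.64 without LPS+AS-IV 3 and 6.21 without LPS 1. The leading tag of this hairpin name had 21 nt, a mature miRNA length, so its counts do not measure the precursor. Tags named mature miR-15b-5p pointed the other way, with 154, 258 and 94 reads with LPS alone and 57, 1 and 1431 in LPS+AS-IV. On the log2 scale the mature name changed by -0.72 (SE 1.41), and by -1.09 with LPS+AS-IV 3 set aside. The groups overlapped for the hairpin name and for the mature name, and edgeR called neither.

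The miRNA profile was led by the same names in both groups. miR-181a-5p, abundant in lymphoid cells and a regulator of antigen receptor signalling, held 11.8%, 13.9% and 14.1% of the miRNA reads with LPS alone and 8.12%, 6.72% and 15.02% in LPS+AS-IV. LPS+AS-IV 1 and 2 lay below every LPS library, and LPS+AS-IV 3 above. The log2 fold change came to -0.31 (SE 0.30, edgeR adjusted p = 0.963) over 6 libraries and -0.90 without LPS+AS-IV 3, where the adjusted p was 0.118. miR-423-3p stood at 122838 ± 38770 CPM with LPS alone and 101562 ± 36709 CPM in LPS+AS-IV. miR-92a-3p stood at 96219 ± 10006 CPM with LPS alone, beside 106280 ± 41573 CPM (SD, 3 libraries each, n = 3). let-7a-5p stood at 72710 ± 4292.02 CPM and 87455 ± 14167 CPM, and let-7b-5p at 72270 ± 23760 CPM and 87182 ± 16957 CPM (SD, 3 libraries each, n = 3). miR-191a-5p differed least in this group of 6, with 48927 ± 5308 CPM and 50313 ± 7174 CPM (SD, 3 libraries each, n = 3). The 50 miRNAs read in all 6 libraries held 95.5% of the miRNA reads, and no miRNA was present in each library of 1 group and absent from the other.

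By the main test no miRNA passed. edgeR's quasi-likelihood test called 0 of 94 miRNAs (0%), with 1 higher and 2 lower at an unadjusted p under 0.05 (3.19%), and DESeq2 called 1, miR-128-3p. Of the 94, 57 had a higher fitted level in LPS+AS-IV (60.6%), with a median log2 fold change of 0.19. This majority turned in other settings. It was 43.9% without LPS+AS-IV 3 (median -0.11), 45.4% without both libraries numbered 3 (median -0.03), 48.9% with each tag given 1 name in every library (median -0.07) and 45.2% with the second count column of the table (median -0.07). Of the same 94 miRNAs, 70 kept the sign of their log2 fold change without LPS+AS-IV 3, 21 that were higher became lower or level, and 3 that were lower became higher.

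**Figure D4:**
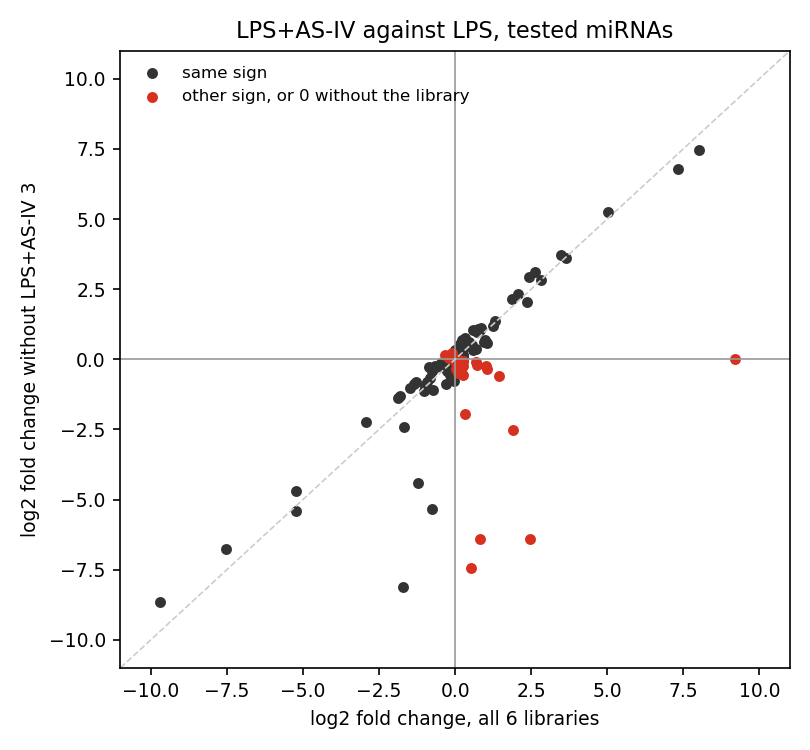
Log2 fold change of LPS+AS-IV against LPS for the 94 tested miRNAs, over 6 libraries (horizontal axis) and without LPS+AS-IV 3 (vertical axis), with a dashed line where both are equal. The 70 points of the same sign are dark and the other 24 red, with miR-128-3p, read in LPS+AS-IV 3 alone, at 9.19 and 0.

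In 4 miRNAs (4.26%) each LPS+AS-IV library lay above each LPS library. let-7d-5p, a let-7 family member and general brake on proliferation and stem cell genes, stood at 13025, 13559 and 16194 CPM with LPS alone and 18319, 21890 and 24452 CPM in LPS+AS-IV. The log2 fold change came to 0.60 (SE 0.39, edgeR adjusted p = 0.963), and 0.32 without LPS+AS-IV 3. miR-204-5p, the miRNA that the series title names and which restrains epithelial to mesenchymal transition, had 3, 1 and 20 reads with LPS alone and 25, 159 and 681 in LPS+AS-IV. These came to 108, 17.1 and 321 CPM and to 1803, 2424 and 1360 CPM. The log2 fold change came to 3.63 (SE 1.997, unadjusted p = 0.0911, edgeR adjusted p = 0.963), and between 2.89 and 4.74 when any 1 of the 6 libraries was left out. LPS 1 and LPS 2 had so few reads that a group difference of this size rests on 24 reads in LPS.

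miR-1249 and miR-26b-5p, outside the naming rule and named after their values were seen, were the other 2. miR-1249 had 22, 38 and 98 reads with LPS alone and 25, 120 and 1186 in LPS+AS-IV (log2 fold change 0.99, SE 1.85). miR-26b-5p, of the growth-restraining miR-26 family, had 12, 0 and 34 reads with LPS alone and 13, 290 and 782 in LPS+AS-IV (log2 fold change 2.82, SE 2.27). Both had an edgeR adjusted p of 0.963. The far more abundant miR-26a-5p stood at 23581 ± 5724 CPM with LPS alone and 26366 ± 6324 CPM with both agents (SD, 3 libraries each, n = 3), with overlapping groups.

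In 3 miRNAs (3.19%) each LPS+AS-IV library lay below each LPS library. miR-222-3p, which lowers the cell cycle inhibitor p27, stood at 10543, 15202 and 10502 CPM with LPS alone and 6924, 8460 and 3554 CPM in LPS+AS-IV. The log2 fold change came to -0.94 (SE 0.59, edgeR adjusted p = 0.963), and -0.81 without LPS+AS-IV 3. Its cluster partner miR-221-3p, with the same seed, had 143, 1 and 0 reads with LPS alone and 29, 103 and 2398 in LPS+AS-IV and did not follow it. miR-25-3p, of the miR-106b-25 cluster, stood at 2519, 3989 and 2581 CPM with LPS alone and 2092, 1402 and 1073 CPM in LPS+AS-IV (log2 fold change -0.997, SE 1.06). miR-92a-3p, which has its seed, overlapped between groups, at 104635, 98867 and 85155 CPM with LPS alone and 148067, 64925 and 105849 CPM in LPS+AS-IV. miR-328a-3p stood at 2699, 2842 and 6413 CPM with LPS alone and 1875, 2180 and 1856 CPM in LPS+AS-IV (log2 fold change -1.02, SE 0.94, and -0.59 without LPS 3). Both had an edgeR adjusted p of 0.963. Setting LPS+AS-IV 3 aside, 13 of 94 miRNAs lay above and 5 below in each of the 2 libraries left. With 2 libraries against 3, groups separate by chance more easily than with 3 against 3, so these counts are not comparable with those above.

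**Figure D5:**
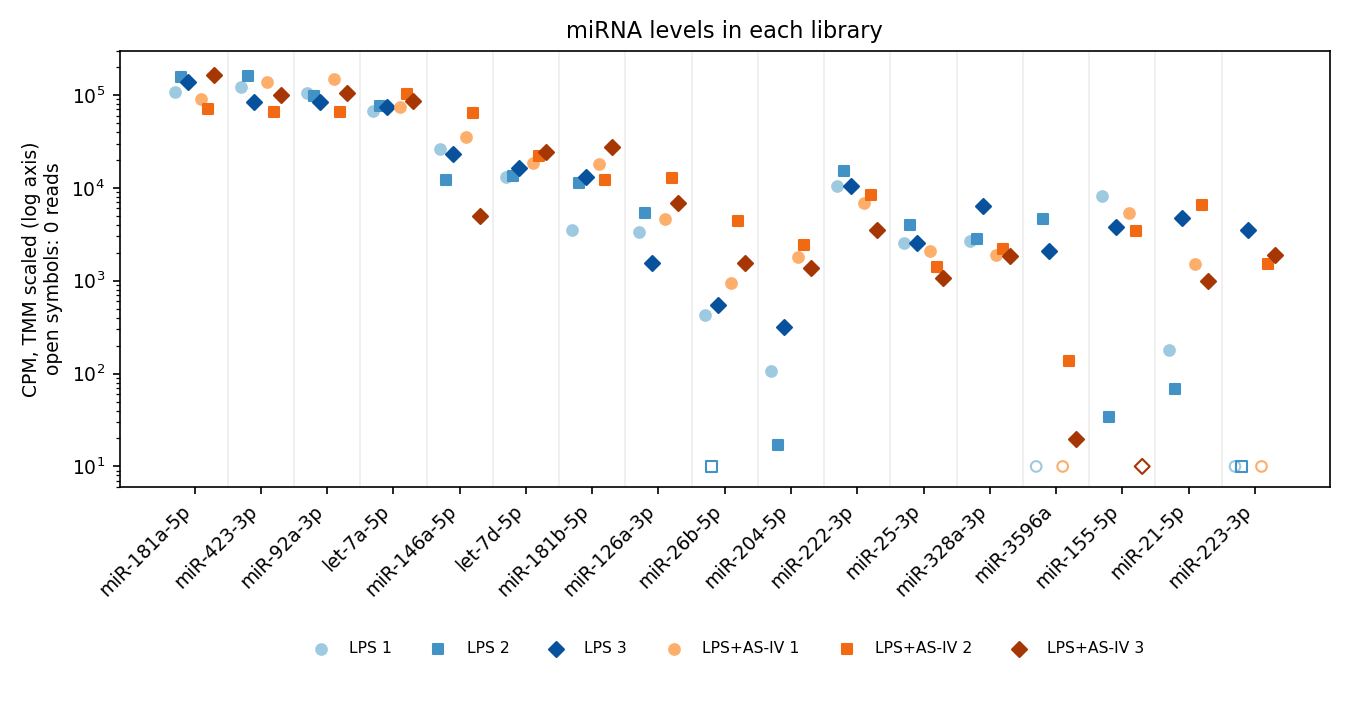
CPM scaled with TMM factors (vertical axis, log scale) of 17 miRNAs in each of the 6 libraries, LPS in blue and LPS+AS-IV in orange to brown, with open symbols at the foot for 0 reads. The abundant miRNAs on the left overlap between groups, miR-204-5p is at 17.1 to 321 CPM with LPS alone and 1360 to 2424 CPM in LPS+AS-IV, and the groups also part for let-7d-5p, miR-26b-5p, miR-222-3p, miR-25-3p and miR-328a-3p.

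Further miRNAs were among the 10 with the smallest unadjusted p in their direction, with overlapping groups. miR-126a-3p, the endothelial miRNA that supports vessel integrity, had 93, 310 and 98 reads with LPS alone and 64, 844 and 3445 in LPS+AS-IV (3346, 5307 and 1571 CPM against 4616, 12866 and 6882 CPM). Only the LPS 2 and LPS+AS-IV 1 values overlap. The log2 fold change came to 1.25 (SE 0.67, edgeR adjusted p = 0.963), and ranged from 0.77 to 1.51 when any 1 library was left out. miR-181b-5p, which restrains NF-κB signalling in endothelium, stood at 3526, 11316 and 13051 CPM with LPS alone and 18175, 12272 and 27492 CPM in LPS+AS-IV (log2 fold change 1.05, SE 0.59, edgeR adjusted p = 0.963). That value was 0.58 without LPS+AS-IV 3 and 0.51 without LPS 1. Its seed partner miR-181a-5p had a log2 fold change below 0. miR-30d-5p had 0, 56 and 93 reads with LPS alone and 170, 196 and 1 in LPS+AS-IV (log2 fold change 2.63, SE 2.003), a value that was 0.62 without LPS+AS-IV 1 and 3.11 without LPS+AS-IV 3. miR-378a-3p, encoded within the gene of the metabolic coactivator PGC-1β, had 17, 515 and 78 reads with LPS alone and 17, 13 and 944 in LPS+AS-IV (log2 fold change -1.69, SE 1.41). Without LPS 2 that value was 0.13. A tag equal to the miR-378a-3p reference with 1 base more at its 3′ end was named miR-3557-5p, so these counts leave it out. That tag had 364, 1569 and 1770 reads with LPS alone and 216, 958 and 13371 in LPS+AS-IV. The log2 fold change of the name miR-3557-5p was -0.17.

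Several of the largest fitted differences came from 1 tag in 1 or 2 libraries. miR-128-3p, a brain-rich miRNA, had 1102 reads in LPS+AS-IV 3 and none elsewhere, all on 1 tag, in a library whose median mature miRNA tag had 1100.5 reads. It was at least 10.6-fold higher in LPS+AS-IV than the mean floor of 3 reads per LPS library. DESeq2 called it (adjusted p = 3.27e-08) and edgeR did not (0.963). miR-125a-5p, which targets the inflammation regulator TNFAIP3, had 64 reads in LPS+AS-IV 2 and none elsewhere, at least 4.70-fold higher. Summing tags with 0 or 1 mismatch, its log2 fold change was 0.05. miR-532-3p had 110 and 78 reads in LPS 2 and LPS 3 and none in the other 4 libraries, at least 11.7-fold lower in LPS+AS-IV than in LPS, and with 0 or 1 mismatch its log2 fold change was -0.64. miR-1306-5p was read 20 times, in LPS 1 alone, at least 2.68-fold lower. miR-181c-5p had 39 reads in LPS+AS-IV 2 alone, at least 2.87-fold higher.

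The smallest p of the 94 belonged to miR-3596a, with 0, 271 and 129 reads with LPS alone and 0, 9 and 10 in LPS+AS-IV (log2 fold change -5.24, SE 1.35, unadjusted p = 0.0017, edgeR adjusted p = 0.160). The reads in LPS 2 and LPS 3 were all on the tag printed above beside let-7a-5p. The files named that tag let-7a-5p in LPS 1 (85 reads), LPS+AS-IV 1 (20 reads) and LPS+AS-IV 2 (52 reads). With 1 name for each tag, miR-3596a had 85, 271 and 129 reads with LPS alone and 20, 60 and 10 in LPS+AS-IV, and its log2 fold change was -2.26. edgeR called miR-3596a without LPS 1 (adjusted p = 1.79e-10), without LPS+AS-IV 2 (0.00163) and with no filter on low counts (4.04e-16). Across the 6 libraries, 16 of 464 mature miRNA tags had more than 1 name. They held between 0.409% and 2.02% of the miRNA reads of a library.

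The ends that the miRNAs carried overlapped between the groups. Tags equal to the RefSeq mature sequence held 61.5%, 62.8% and 66.7% of mature miRNA reads with LPS alone and 57.7%, 70.7% and 66.8% in LPS+AS-IV (exact permutation p = 0.7, adjusted p = 0.98). A further 13.5% to 19.996% of these reads in a library were of miRNAs without a RefSeq match, which cannot equal a reference. Tags extended at the 3′ end by T alone held 0.776%, 0.326% and 1.05% with LPS alone and 2.85%, 0.960% and 0.674% in LPS+AS-IV (exact permutation adjusted p = 0.98). No genome was used, so T added to a miRNA cannot be told apart from T of its precursor. Few tags stood behind each miRNA. miR-181a-5p had 5 distinct tags in the 6 libraries, and its reference form held at least 98.96% of its reads in each. A form with 3 more T at the 3′ end had 842 reads in LPS+AS-IV 3 and none elsewhere. miR-204-5p had 3 distinct tags. Its reference form had 3, 1 and 19 reads with LPS alone and 7, 159 and 279 in LPS+AS-IV. The form longer by 1 base at the 3′ end had 0, 0 and 1 reads with LPS alone and 18, 0 and 401 in LPS+AS-IV. For miR-222-3p the leading form was longer than the reference at the 3′ end and had 250, 236 and 399 reads with LPS alone and 58, 404 and 1050 in LPS+AS-IV.

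In the list of miRNAs that LPS induces in macrophages, 9 of 12 were tested, 5 were higher and 4 lower in LPS+AS-IV, and 0 passed, beside 0 of 94 over all miRNAs. The median log2 fold change was 0.67 beside 0.19 over all, and -0.12 without LPS+AS-IV 3. miR-155-5p, the main LPS-induced driver of macrophage inflammation, had 227, 2 and 234 reads with LPS alone and 74, 225 and 0 in LPS+AS-IV (log2 fold change -0.45, SE 2.29, with 1 library left out in turn -1.50 to 0.43). miR-146a-5p, which damps TLR signalling by lowering IRAK1 and TRAF6, stood at 26087, 12275 and 23441 CPM with LPS alone and 35196, 63995 and 4964 CPM in LPS+AS-IV (log2 fold change 0.75, SE 0.65). Its 2 highest and its lowest value were all in LPS+AS-IV, and without LPS+AS-IV 2 the log2 fold change was -0.13. miR-21-5p, an inflammation-resolving and pro-fibrotic miRNA, had 5, 4 and 298 reads with LPS alone and 21, 428 and 493 in LPS+AS-IV (log2 fold change 0.84, SE 1.49, 4.44 without LPS 3 and -0.37 without LPS+AS-IV 2). Each of these had an edgeR adjusted p of 0.963.

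Of the list that restrains inflammation, which shares miR-146a-5p and miR-146b-5p with the former, 8 of 10 were tested, 5 higher and 3 lower, with a median of 0.88, and 0.17 without LPS+AS-IV 3. miR-223-3p, the neutrophil and macrophage miRNA that lowers NLRP3, had 0, 0 and 219 reads with LPS alone and 0, 99 and 944 in LPS+AS-IV (log2 fold change -0.04, SE 2.48), and without LPS 3 no LPS library held a read of it. miR-146b-5p had 0, 164 and 357 reads with LPS alone and 21, 63 and 0 in LPS+AS-IV. The summed share of the list was 15.4%, 16.9% and 18.95% of miRNA reads with LPS alone and 13.5%, 15.6% and 19.2% in LPS+AS-IV.

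Of the pro-fibrotic list, 4 of 7 were tested, 3 higher and 1 lower, with a median of 0.83 that was -3.10 without LPS+AS-IV 3. The members were miR-21-5p, miR-34a-5p, miR-192-5p and miR-199a-3p. miR-199a-3p, of the fibroblast-rich miR-199 and miR-214 cluster, had 1, 0 and 37 reads with LPS alone and 0, 0 and 1766 in LPS+AS-IV. Of the anti-fibrotic list, 4 of 14 were tested, 3 higher and 1 lower, with a median of 1.39, and 1.63 without LPS+AS-IV 3. The members were miR-204-5p, miR-26a-5p, miR-30d-5p and miR-30b-5p. miR-29a-3p, which represses collagens, had 2, 84 and 0 reads with LPS alone and 1, 1 and 516 in LPS+AS-IV and was not tested.

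The let-7 list had 12 tested names of 13, 9 higher and 3 lower, with a median of 0.27, or 8 and 4 when scaled by library totals or DESeq2 size factors. Without LPS+AS-IV 3 it had 7 higher and 5 lower with a median of 0.07. Among its names were miR-3596a, miR-3596c and miR-3596d, and the reference of miR-3596a has another seed than let-7a-5p. The lower names over all 6 libraries were let-7f-5p (log2 fold change -0.19), miR-3596a (-5.24) and miR-3596c (-1.34), while miR-3596d was higher (0.70). let-7c-5p stood at 17019, 8098 and 20860 CPM with LPS alone and 29282, 44985 and 6187 CPM in LPS+AS-IV (log2 fold change 0.81, SE 0.57, edgeR adjusted p = 0.963), again with LPS+AS-IV 3 the lowest. That value was 0.14 without LPS+AS-IV 2, 0.23 without LPS 2, 0.51 without LPS+AS-IV 1 and 1.08 without LPS+AS-IV 3. The proliferation-linked miR-17-92 list had 3 tested members of 11, 1 higher and 2 lower, with a median of -0.05, and 0 higher and 3 lower without LPS+AS-IV 3. The list of miRNAs abundant in vesicles had 7 tested of 8, 6 higher and 1 lower, with a median of 0.11. Scaled by library totals or DESeq2 size factors it had 5 were higher and 2 lower, and without LPS+AS-IV 3 it had 3 higher and 4 lower (median -0.13).

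Markers of the labelled cell type were unevenly read. Of the 7 myeloid markers 3 were tested, 1 higher and 2 lower, with a median of -0.04. Their summed share was 1.09% to 3.74% of miRNA reads with LPS alone and 0.628% to 6.57% in LPS+AS-IV. miR-223-3p was at 0 in LPS 1, LPS 2 and LPS+AS-IV 1, where 3 reads stood for 51.4 to 216 CPM. miR-142-5p had 47 reads in LPS 3 and 1 in LPS+AS-IV 3. Of the 4 lymphocyte markers, 3 were higher and 1 lower (median 0.64, and -0.28 without LPS+AS-IV 3), and they held 14.7% to 18.7% of miRNA reads with LPS alone and 11.2% to 21.8% in LPS+AS-IV. miR-150-5p, the lymphocyte miRNA, stood at 27165 ± 3701 CPM with LPS alone and 32241 ± 14765 CPM with both agents (SD, 3 libraries each, n = 3).

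Of the erythroid markers, miR-451-5p stood at 30727 ± 2561 CPM with LPS alone and 31088 ± 7152 CPM with both agents (SD, 3 libraries each, n = 3), and the list held 2.72% to 3.97% and 3.04% to 3.54% of miRNA reads. Its 2 tested members of 4 were both higher, 1 of them when scaled by library totals or DESeq2 size factors. miR-451-5p had a log2 fold change of 0.0173 that was -0.35 without LPS+AS-IV 3, and its sign turned in 14 of 17 settings. The endothelial list, with 1 of 2 members tested, was miR-126a-3p, described above. The epithelial and mesothelial list had 2 of 8 tested, both lower, and held at most 0.169%. The mesenchymal and smooth muscle list had 5 of 10 tested, 4 higher and 1 lower, with a median of 1.01 that was -0.24 without LPS+AS-IV 3, and held 0.173% to 0.458% with LPS alone and 0.305% to 0.756% in LPS+AS-IV. Of the liver and serum list 2 of 3 were tested, 1 higher and 1 lower, and miR-122-5p, the hepatocyte miRNA, stood at 6033 ± 2641 CPM with LPS alone and 5350 ± 1107 CPM with both agents (SD, 3 libraries each, n = 3). The neural and endocrine list had 4 of 7 tested, 2 higher and 2 lower, or 1 and 3 when scaled by library totals or DESeq2 size factors. None of the 6 striated muscle markers was tested. miR-206-3p, a skeletal muscle miRNA named after its values were seen, had 174 reads in LPS 3 and 2615 in LPS+AS-IV 3 and none in the other 4 libraries. These lists passed the test in 0 members each, and the part of other cells and of serum in the results was not tested.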

How the data were processed

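Exosomal small RNA was sequenced on the BGISEQ-500 platform, per the labels' protocols. The authors deposited whole-number read counts for 201 mature miRNAs, and per library the count of each distinct tag of 15 to 45 nt with 1 assigned name and, per the file headers, a mismatch number or Rfam score. Bowtie2 and Rnor_6.0 are named in the submitters' processing notes, with no version and no role. For adapter trimming and the second deposited count column, headed exp, the method is not given. No genome was used, so no coordinates are given. Mature sequences are from RefSeq (GRCr8).

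Tags of the 6 libraries were each given 1 name, the one with most reads. The miRNAs, tags and families were tested with edgeR 4.0.16 (R 4.3.3), quasi-likelihood, TMM factors, filterByExpr defaults and a Benjamini-Hochberg adjusted p under 0.05. The miRNA fit held all 9 libraries, the others 6. The biological coefficient of variation (root of edgeR's common dispersion) was 1.42 for miRNAs, 2.27 for tags and 1.47 for families. TMM factors lay between 0.903 and 1.11 for miRNAs and between 0.469 and 3.51 for tags. Shares were compared with exact permutation tests (Python 3.11.15, scipy 1.17.1) and have 95% Wilson intervals. An SE is the absolute log2 fold change over the square root of F, and measures no precision where a group has 0 reads. Alternatives were other scalings, DESeq2 1.42.0, other filters, names and libraries. The fits were also run on simulated counts drawn with a smaller spread than these libraries had. That run therefore does not show how well changes are found here.

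The named miRNAs were the 10 with the smallest unadjusted p in each direction, the 15 most abundant and up to 6 tested members of each list. For families and tags they were the 5 with the smallest p in each direction and the 10 most abundant. Members and lists were chosen with earlier results of these data known. Lists were described by counts and medians, with no set test. The sequence and counts of 1 tag are not reported here.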

Additional observations from a re-analysis of the deposited data

How the results depend on the processing

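The 0 miRNA calls became 1 with DESeq2 and 1 with no filter on low counts, and 0 to 1 when 1 library was left out. The 0 family calls became 2 with library totals, 6 with DESeq2, 3 with no filter, 1 with 9 libraries in the fit, 1 with both libraries numbered 3 left out (an alternative chosen after seeing the data), and 0 to 6 when 1 library was left out. The 6 came without LPS+AS-IV 1, 2 higher and 4 lower. The count of tags, class shares and length shares called was 0 under each alternative run. The replicate block gave 0 calls of miRNAs, tags and families. Same-numbered deviations from the group means correlated at 0.286, 0.031 and 0.405 over tags and at 0.240, -0.094 and -0.028 over miRNAs. Over tags, LPS 1 and LPS 3 correlated best with their own number and LPS 2 did not. Only LPS 1 did so over miRNAs. The labels give no pairing, and these values cannot show whether the samples were paired. Over 39 single values, 580 alternatives gave 536 of the same direction and 44 of the other, and 23 values turned in none.

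With both libraries numbered 3 left out, the log2 fold change was -0.28 for miR-92a-3p, -0.0415 for let-7a-5p, -0.17 for let-7b-5p, 7.97 for miR-223-3p, 1.26 for rno_piR_001199 and 0.89 for rno_piR_005901, and the share differences were 2.10 percentage points for piRNA and -0.617 for mature miRNA. With the exp column they were -0.17 for miR-92a-3p, -0.0749 for let-7a-5p and -0.0519 for let-7b-5p. miR-92a-3p stood at -0.10 with 1 name for a tag over 6 or 9 libraries and at -0.19 with 0 or 1 mismatch, where miR-21-5p stood at -0.43. miR-223-3p stood at 3.003 and rno_piR_001199 at 0.0167 with the replicate block, and miR-223-3p at 0.0563 with no filter. Without each library's most abundant tag, bacterial and archaeal rRNA differed by 1.10 and eukaryotic rRNA by -0.155 percentage points. With tags counted once they differed by 0.459 and -0.265. Leaving out 1 library in turn gave ranges of -0.26 to 0.38 for miR-92a-3p, -0.12 to 0.37 for let-7b-5p, -0.13 to 1.06 for miR-146a-5p, -1.50 to 0.43 for miR-155-5p, -0.37 to 4.44 for miR-21-5p, -0.79 to 9.84 for miR-223-3p, -2.42 to 0.13 for miR-378a-3p, -2.54 to 0.89 for rno_piR_001199 and -2.41 to 0.71 for rno_piR_005901. In percentage points the ranges were -10.2 to 13.6 for tRNA, -17.2 to 3.31 for piRNA, -0.488 to 3.51 for mature miRNA, -8.60 to 4.95 for bacterial and archaeal rRNA and -22.3 to 1.17 for 33 to 38 nt. The cause was not tested, beyond fewer samples in the settings that leave libraries out. Depth limits low miRNAs most in LPS+AS-IV 1, where 3 reads were 216 CPM.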
